A study of Mus musculus with 4 samples.

Results

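The genes described here are 8 of the genes with which cells make cholesterol and sense how much of it they hold: Srebf2, Insig1, Hmgcs1, Idi1, Fdft1, Sqle, Lss and Cyp51. They were taken by gene name from the count table, which lists 56748 genes, and all 8 were among the 16094 genes with enough reads to be tested. The reads came from the small intestine (SI) of WT mice, which carry intact p53 (p53+/+), in 2 libraries, and of p53-/- mice, which lack p53 in every tissue, in 2 more. All these mice had received 12 Gy total-body irradiation (TBI) from a Cs-137 source, and the SI was taken 1 day later, so no unirradiated SI stands beside them. The mice of the study were 8-12 weeks old and matched for age and sex. The column names carry the numbers 7 and 8 (WT) and 9 and 10 (p53-/-), used here as names of the libraries. The labels call the libraries of a genotype replicates and do not say which animal each came from, so p-values measure the spread between these libraries.

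Cholesterol is built from acetyl-CoA by way of mevalonate, isoprenoid units, squalene and lanosterol. Most enzymes of this route are transcribed under SREBP2, a membrane-bound factor encoded by Srebf2. When sterols are plentiful, INSIG proteins hold SREBP2 and its escort SCAP in the endoplasmic reticulum, and when sterols run low SREBP2 is cut free and enters the nucleus. In the SI, enterocytes both make cholesterol and take it up from food and bile. SREBP2 binds sterol response elements, short DNA stretches near gene starts, together with NF-Y, which binds the CCAAT box, and Sp1, which binds GC boxes.

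The stretches before the starts of these genes are shown because the 8 genes lay on the same side of WT in these libraries and share this regulator. RefSeq promoters (GRCm38.p6) were at hand for 6 of the 8, without Sqle and Fdft1. Each line gives the 250 bases before the start, 5' to 3' on the strand of the gene, with capitals for the motifs searched on both strands. These were the box bound by NF-Y, CCAAT, then the core of the GC box, GGGCGG, then the E-box, CACGTG. The last was a form of the sterol response element, TCACNCCAC, in which only the base N is free.
Srebf2, chr15:82147019-82147268, plus strand: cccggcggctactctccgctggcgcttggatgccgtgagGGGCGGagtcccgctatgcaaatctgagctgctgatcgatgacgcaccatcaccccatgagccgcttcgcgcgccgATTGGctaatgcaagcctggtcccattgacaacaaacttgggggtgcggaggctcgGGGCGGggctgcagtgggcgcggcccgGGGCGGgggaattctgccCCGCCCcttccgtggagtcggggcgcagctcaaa
Insig1, chr5:28071162-28071411, plus strand: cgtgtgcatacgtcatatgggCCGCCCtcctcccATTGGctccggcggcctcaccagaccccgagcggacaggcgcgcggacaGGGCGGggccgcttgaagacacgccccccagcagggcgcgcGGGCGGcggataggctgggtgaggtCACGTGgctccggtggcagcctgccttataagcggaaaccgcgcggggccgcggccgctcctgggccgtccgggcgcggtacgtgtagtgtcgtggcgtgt
Hmgcs1, chr13:119690101-119690350, plus strand: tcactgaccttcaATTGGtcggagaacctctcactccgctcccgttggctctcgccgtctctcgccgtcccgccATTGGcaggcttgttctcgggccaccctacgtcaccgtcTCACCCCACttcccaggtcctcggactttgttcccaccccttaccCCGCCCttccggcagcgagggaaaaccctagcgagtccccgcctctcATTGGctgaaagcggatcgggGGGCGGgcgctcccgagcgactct
Idi1, chr13:8885356-8885605, plus strand: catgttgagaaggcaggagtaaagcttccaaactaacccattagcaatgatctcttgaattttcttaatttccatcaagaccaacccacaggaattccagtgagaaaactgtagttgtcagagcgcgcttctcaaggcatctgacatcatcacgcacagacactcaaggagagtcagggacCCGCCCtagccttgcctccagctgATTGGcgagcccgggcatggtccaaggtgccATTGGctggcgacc
Lss, chr10:76531355-76531604, plus strand: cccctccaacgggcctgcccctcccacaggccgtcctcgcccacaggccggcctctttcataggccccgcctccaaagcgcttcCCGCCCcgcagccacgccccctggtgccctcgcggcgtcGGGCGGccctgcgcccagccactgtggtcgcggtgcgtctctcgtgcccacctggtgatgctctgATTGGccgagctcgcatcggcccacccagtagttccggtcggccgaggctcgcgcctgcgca
Cyp51, chr5:4104698-4104947, minus strand: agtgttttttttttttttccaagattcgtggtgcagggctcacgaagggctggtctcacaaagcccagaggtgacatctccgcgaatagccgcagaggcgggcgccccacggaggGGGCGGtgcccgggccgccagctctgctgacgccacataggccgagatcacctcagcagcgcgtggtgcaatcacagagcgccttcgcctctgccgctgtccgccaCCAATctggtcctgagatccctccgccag
Windows that also take in the 50 bases after the start were scored over 32851 promoters. CCAAT was in 6 of the 6 member windows and in 37.4% of all promoters. GGGCGG was likewise in 6 of 6, against 35.7%. Of 17 other synthesis enzymes and SREBP2 targets, 15 had CCAAT and 14 had GGGCGG, so these boxes were not particular to the 8 genes. Lbr, Mvd and Dhcr7, which did not lie low in p53-/- mice, were among those with both. TCACNCCAC was in 1 of 6, that of Hmgcs1, against 1.24%, and CACGTG in 1, that of Insig1, against 7.15%. Among the 17 others they were in 0 and 4. A match describes the letters only. Sterol response elements that differ from TCACNCCAC at another base were not searched for, so a window with no match may still hold one.

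In the p53-/- SI, each of the 8 genes was at a lower CPM (a gene's counts relative to the size of its library, here after TMM scaling of the libraries to each other) in both libraries than in either WT library, and none of the 8 passed the test one by one. The mean level in the p53-/- SI lay between 49.3% of WT, for Insig1, and 77.3%, for Idi1. The median log2 fold change of the 8 was -0.58 (range -1.02 to -0.37), beside -0.01 over all genes tested and -0.19 over the 4357 genes with a WT mean at or above that of Lss, the least abundant of the 8. Scaled to the summed reads of 10 epithelial marker genes instead, the median was -0.15, beside 0.44 over all genes tested. Sqle and Idi1 were then on the other side of 0. Genes whose p53-/- libraries both lay below both WT libraries made up 24.4% of all genes tested, while 26.4% had both above, and they made up 44.1% of those 4357 genes. With edgeR's quasi-likelihood test and Benjamini-Hochberg adjustment over all genes (threshold 0.05), 0.193% of genes were called lower, 0.298% higher and 0.491% in either direction. At an unadjusted p under 0.05, the same test gave 3 of the 8, all lower, beside 7.92% of all genes that were lower and 10% that were higher. DESeq2 called 3 of the 8, beside 4.47% called lower among the 14845 genes to which it gave an adjusted p. The 8 genes were chosen with earlier results of these data known, so setting them beside these shares is not an independent test.

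**Figure D1:**
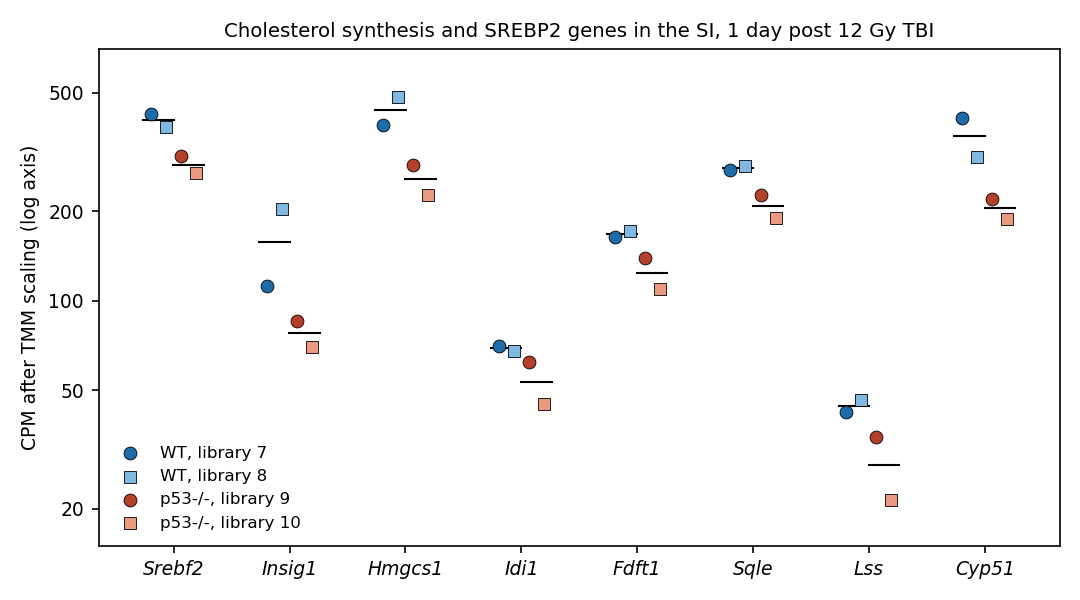
CPM of each of the 8 genes in each library on a log axis, with the mean of the 2 libraries of a genotype as a bar (blue, WT; red, p53-/-). For every gene both red points lie below both blue points, and the library 10 point lies below the library 9 point.

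Srebf2 (ENSMUSG00000022463), the gene of SREBP2 itself, was at 423 and 384 CPM in libraries 7 and 8 (WT) and at 306 and 268 CPM in libraries 9 and 10 (p53-/-). The means were 404 ± 27.0 and 287 ± 26.6 CPM (SD, n = 2). The log2 fold change was -0.49 (standard error, SE, 0.198, adjusted p = 0.280). The gap between the genotypes was wider than that between libraries of a genotype, and it was not past the threshold.

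Insig1 (ENSMUSG00000045294), which encodes a protein that retains SREBP2 and is itself a target of SREBP2, was at 112 and 203 CPM in WT and at 85.3 and 69.9 CPM in p53-/- mice. Its log2 fold change of -1.02 was the furthest from 0 of the 8 and had the largest SE (0.316, adjusted p = 0.196). The WT libraries differed 1.81-fold, library 8 being the higher. Without library 8 the log2 fold change was -0.53, and without library 7, the lower WT library, it was -1.38.

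Of the enzymes before squalene, Hmgcs1 (ENSMUSG00000093930) condenses acetyl-CoA and acetoacetyl-CoA into HMG-CoA. Hmgcs1 was at 389 and 483 CPM in WT and at 285 and 227 CPM in p53-/- mice, for a log2 fold change of -0.77 (SE 0.231, adjusted p = 0.187). Idi1 (ENSMUSG00000058258), which interconverts the 2 five-carbon isoprenoid units, was at 70.6 and 67.6 CPM in WT and at 62.1 and 44.8 CPM in p53-/- mice, for a log2 fold change of -0.37 (SE 0.202, adjusted p = 0.412). For Idi1 the p53-/- libraries differed from each other by more than library 9 differed from WT, and without library 10 the log2 fold change was -0.10. Fdft1 (ENSMUSG00000021273), squalene synthase, commits the pathway to sterols. Fdft1 was at 163 and 172 CPM in WT and at 139 and 109 CPM in p53-/- mice, for a log2 fold change of -0.43 (SE 0.193, adjusted p = 0.325), which was -0.21 without library 10.

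Sqle (ENSMUSG00000022351), the epoxidase that acts on squalene and a rate-limiting step, was at 275 and 284 CPM in WT and at 226 and 189 CPM in p53-/- mice. The WT libraries differed by little, and the log2 fold change was -0.43 (SE 0.190, adjusted p = 0.319). Lss (ENSMUSG00000033105), which closes the ring system to give lanosterol, was at 42.3 and 46.4 CPM in WT and at 34.7 and 21.3 CPM in p53-/- mice, for a log2 fold change of -0.66 (SE 0.264, adjusted p = 0.279). Library 10 held 0.615 of the Lss level of library 9, the widest gap between p53-/- libraries among the 8, and the log2 fold change was -0.30 without library 10 and -1.06 without library 9.

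Cyp51 (ENSMUSG00000001467), the cytochrome P450 that takes a methyl group off lanosterol, was at 410 and 304 CPM in WT and at 220 and 188 CPM in p53-/- mice. The log2 fold change was -0.81 (SE 0.232, adjusted p = 0.176), the smallest adjusted p of the 8. Hmgcs1, Insig1 and Cyp51 were the 3 genes that DESeq2 called, with adjusted p-values of 0.0105, 0.0275 and 0.00670.

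Exons of Hmgcs1, Idi1, Fdft1, Lss and Cyp51 overlap a gene on the opposite strand in GENCODE M21. So do those of Scap, Srebf1, Lbr, Abcg5, Abcg8, Icmt, Nr1d1, Bhlhe40 and Bhlhe41 among the list genes named further on. Whether strand was used in counting is not given in the sources used here. If it was not, reads of these neighbours could not be told apart from theirs. Lbr and Srebf1 also share 69 and 66 bases with a gene on the same strand.

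Levels between genes can be compared only per length of transcript, here as RPKM (CPM per kilobase of exon), with exon lengths from the GENCODE M21 basic set. In WT, the order was Hmgcs1 (112 to 139 RPKM over the 2 libraries), Sqle (99.8 to 103), Cyp51 (77.4 to 104), Srebf2 (75.7 to 83.2), Insig1 (41.5 to 75.3), Fdft1 (44.1 to 46.5), Idi1 (22.3 to 23.3) and Lss (9.07 to 9.94). The WT ranges of Sqle and Cyp51, Cyp51 and Srebf2, and Insig1 and Fdft1 overlapped, so these neighbours were not apart beyond their spread. In p53-/- mice Lss was again the lowest, at 4.57 to 7.44 RPKM, and Hmgcs1 (65.1 to 81.7) and Sqle (68.7 to 81.9) overlapped at the top.

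The libraries of a genotype also differed from each other. All 8 genes were lower in library 10 than in library 9, at 0.615 to 0.877 of its level. This was not particular to them. Summed markers of the epithelium (17730 and 14837 CPM) and of enterocytes (21084 and 17280 CPM) were also lower in library 10, while those of T cells and B cells were higher there. In WT, Insig1 and Hmgcs1 were higher in library 8 (1.81 and 1.24 times library 7) while Cyp51 was lower there (0.741). Without library 10 the median log2 fold change of the 8 genes was -0.32, and without library 9 it was -0.78.

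The other enzymes of the route were taken from a list of 22, of which 16 are not among the 8 genes. All 22 were tested, and 0 passed the threshold in either direction by edgeR's quasi-likelihood test. At an unadjusted p under 0.05 by that test, 8 were lower and 1 higher, beside 7.92% and 10% of all genes. DESeq2 called 6 lower and 0 higher, and it called lower 4.47% of all genes given an adjusted p. These shares stand beside the lists that follow too. The median log2 fold change was -0.43, and -0.35 over the 16, but it was 0.0012 for the 22 when scaled to the epithelium markers. The median of all genes under that scaling, 0.44, stands beside this value and those of the lists that follow. Of the 16, 9 had both p53-/- libraries below both WT libraries, beside 24.4% of all genes tested. Another 2 had both above, beside 26.4%. Among the 4357 genes with a WT mean at or above that of Lss, 44.1% had both below.

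Msmo1, which oxidizes the methyl groups left after Cyp51, was at 366 and 271 CPM in WT and at 172 and 158 CPM in p53-/- mice (log2 fold change -0.94, SE 0.223, adjusted p = 0.134). With 1 library left out the log2 fold change of Msmo1 ran from -1.15 to -0.70. The -1.15 was without library 8, the WT library in which Msmo1 was lower.

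Not every step lay low. Mvd, which makes isopentenyl diphosphate, was at 46.0 and 55.7 CPM in WT and at 46.6 and 43.6 CPM in p53-/- mice, and Dhcr7, which reduces 7-dehydrocholesterol, was at 63.4 and 53.01 CPM against 58.9 and 49.4 CPM. The genotypes overlapped for both genes. Nsdhl, a dehydrogenase of the demethylation steps, was by contrast lower in both p53-/- libraries. It was at 42.3 and 36.9 CPM in WT and at 32.0 and 29.7 CPM in p53-/- mice (log2 fold change -0.36, SE 0.169, adjusted p = 0.344). Lbr, the lamin B receptor with sterol reductase activity, was the highest of the list, at 43.6 and 32.8 CPM in WT against 62.9 and 57.2 CPM in p53-/- mice (log2 fold change 0.65, SE 0.193, adjusted p = 0.184). Tm7sf2, which carries the same reductase activity, was at 112 and 93.9 CPM in WT and at 66.1 and 52.2 CPM in p53-/- mice. Its exons share 532 bases with Vps51 on the same strand in GENCODE M21, so its counts are uncertain and no direction is given. Fdps, which makes farnesyl diphosphate, had 27 to 49 reads in a library. Its exons share 1124 bases with Gm43738, also on the same strand, and the same holds for it.

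**Figure D2:**
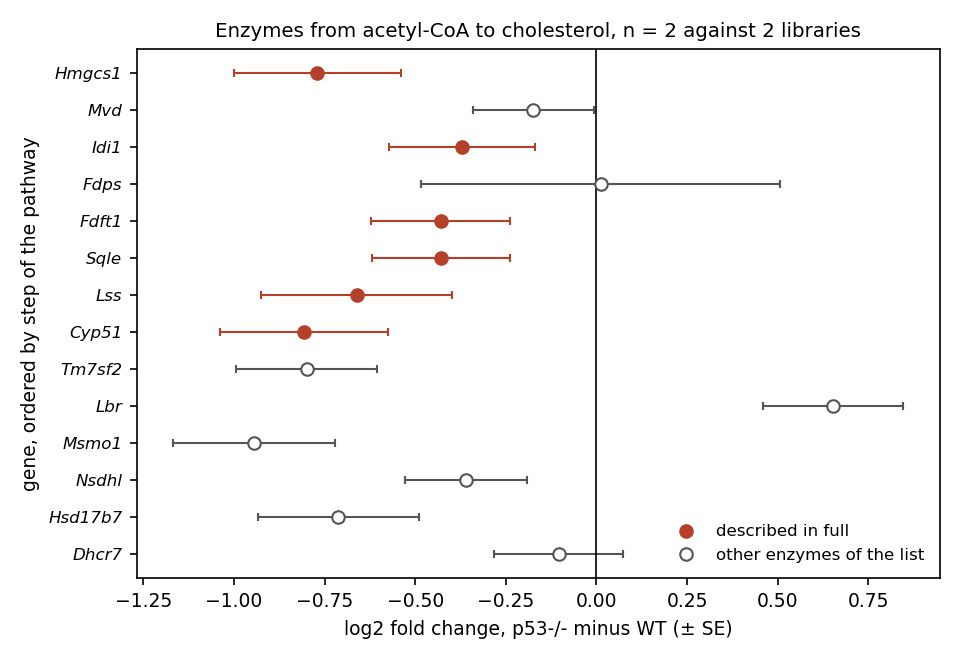
Log2 fold change of p53-/- over WT with its SE for 14 of the 22 enzymes, those named in the text, from the first step at the top to the last at the bottom (red, genes of the 8; open, the other enzymes). Most points lie left of 0, Msmo1 the furthest at -0.94, and Lbr lies to the right at 0.65. The counts of Tm7sf2 and Fdps are uncertain because of shared exons.

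Around SREBP2, the median over 15 genes of its processing and of sterol sensing, Srebf2 and Insig1 included, was -0.13 on the log2 scale and 0.32 when scaled to the epithelium markers, with 0 called in either direction by edgeR (2 lower and 1 higher at an unadjusted p under 0.05, and the same numbers called by DESeq2). Scap, the escort of SREBP2, was at 62.1 and 64.9 CPM in WT and at 52.99 and 48.3 CPM in p53-/- mice (log2 fold change -0.33, SE 0.147, adjusted p = 0.328). Insig2, the relative of Insig1 that does not depend on SREBP2 in the same way, was at 127 and 81.7 CPM in WT and at 80.9 and 86.2 CPM in p53-/- mice, so its genotypes overlapped. Srebf1, the gene of SREBP1, was at 75.3 and 75.5 CPM in WT and at 72.2 and 66.0 CPM in p53-/- mice (log2 fold change -0.13, SE 0.149, adjusted p = 0.726). Rnf145, a ubiquitin ligase of sterol sensing, was the highest of the list at 82.6 and 86.6 CPM against 49.4 and 32.7 CPM in WT (log2 fold change 1.04, SE 0.231, adjusted p = 0.121).

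Of 11 further SREBP2 targets, a list that shares Insig1, Srebf2 and some other genes with the lists above, 0 were called by edgeR (4 lower and 1 higher at an unadjusted p under 0.05, and 3 lower by DESeq2), with a median log2 fold change of -0.30, or 0.17 when scaled to the epithelium markers. Npc1l1, the intake protein for dietary cholesterol, was at 730 and 887 CPM in WT and at 832 and 544 CPM in p53-/- mice, with overlapping genotypes. Fabp5, a fatty acid binding protein, was the highest of the list, with 410 reads in library 10 against 41, 46 and 79 in libraries 7, 8 and 9, so that its value rests on library 10.

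For the 9 genes of LXR and sterol export the median log2 fold change was -0.34, or 0.13 when scaled to the epithelium markers, with 0 called by edgeR (4 lower and 1 higher at an unadjusted p under 0.05, and 2 lower and 1 higher by DESeq2). Abcg5 and Abcg8, the 2 parts of the transporter that returns sterols to the lumen, were at 308 and 239 CPM and at 283 and 247 CPM in WT, against 170 and 157 CPM and 173 and 143 CPM in p53-/- mice. Their log2 fold changes were both -0.74 (adjusted p = 0.168 and 0.159). Abca1 and Abcg1, which export cholesterol to lipoproteins, lay on the other side, at 13.9 and 23.9 CPM and at 3.90 and 5.39 CPM in WT against 25.4 and 29.1 CPM and 6.53 and 12.0 CPM in p53-/- mice (log2 fold changes 0.53 and 0.99, adjusted p = 0.441 and 0.319). Smpdl3a, an LXR target encoding a phosphodiesterase, was the highest, at 205 and 180 CPM against 87.1 and 71.5 CPM in WT (log2 fold change 1.28, SE 0.191, adjusted p = 0.0638).

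In the list of sterol uptake, storage and transport, 0 of 9 genes were called by edgeR (2 lower and 1 higher at an unadjusted p under 0.05, and the same numbers by DESeq2), and the median log2 fold change was -0.06, or 0.42 when scaled to the epithelium markers. Soat1, which esterifies cholesterol in many cell types, was at 14.2 and 15.8 CPM in WT and at 30.9 and 35.5 CPM in p53-/- mice (log2 fold change 1.15, SE 0.201, adjusted p = 0.0912). Soat2, the enterocyte and liver form, overlapped between genotypes at 74.3 and 64.6 CPM against 80.0 and 65.4 CPM. Lipa, the lysosomal lipase that frees cholesterol from esters, was the lowest, at 111 and 70.9 CPM in WT and at 46.4 and 46.3 CPM in p53-/- mice (log2 fold change -0.97, SE 0.245, adjusted p = 0.146).

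For the 12 genes of branches that leave the route before squalene the median was -0.04 on the log2 scale, or 0.42 when scaled to the epithelium markers, with 0 called by edgeR, 0 by DESeq2 and 1 higher at an unadjusted p under 0.05. They ran from -0.38 for Icmt, a methyltransferase for prenylated proteins, to 0.48 for Dhdds, of dolichol synthesis. Of 15 fatty acid synthesis targets of SREBP1, 14 were tested (Pnpla3 had 2 to 8 reads) and the median was 0.18 (0.60 when scaled to the epithelium markers), with 0 called by edgeR, 1 lower and 5 higher at an unadjusted p under 0.05, and 2 higher by DESeq2. Fasn, fatty acid synthase, was at 80.9 and 84.9 CPM in WT and at 107 and 92.7 CPM in p53-/- mice (log2 fold change 0.27, SE 0.162, adjusted p = 0.463). Acacb, an acetyl-CoA carboxylase, was the highest at 1.18, and Thrsp, a lipogenic regulator with 9 to 40 reads, the lowest at -1.90. The difference between these lists was not tested.

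**Figure D3:**
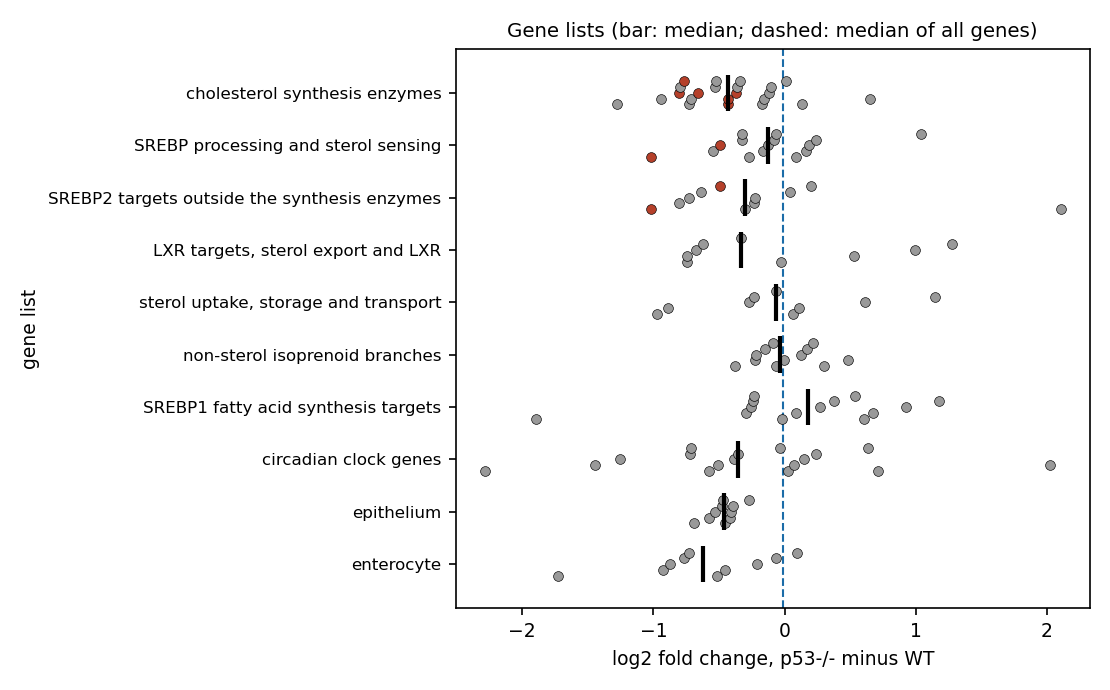
Log2 fold change of p53-/- over WT for each tested gene of 8 lists and of the epithelium and enterocyte markers (red, genes of the 8; bar, median of the list; dashed line, median of all genes tested). The median is -0.43 for the synthesis enzymes, 0.18 for the SREBP1 targets and -0.46 for the epithelium markers.

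The tissue makeup of the libraries moved with the same comparison. Markers of the epithelium were present in all 4 libraries, and their summed level was 26468 and 18903 CPM in WT and 17730 and 14837 CPM in p53-/- mice, with 8 of 10 markers lower in both p53-/- libraries than in either WT library. For the 10 enterocyte markers the sums were 26426 and 26596 CPM against 21084 and 17280 CPM, although Fabp1 and Lct stood at no more than 5.45 and 0.99 CPM in any library. Of these 10, 5 were lower in both p53-/- libraries than in either WT library and 0 were higher in both. Of all genes tested, 24.4% were lower and 26.4% higher in that way. The 8 T cell markers summed to 8.11 and 15.4 CPM in WT and to 68.3 and 134 CPM in p53-/- mice, each marker higher in both p53-/- libraries, with Cd2 at 0 in a WT library. B cell markers summed to at most 1.82 CPM in WT, where 6 of 8 had a library at 0, and to 24.8 and 487 CPM in libraries 9 and 10. Smooth muscle markers stood out in WT library 8, at 4495 CPM against 481 to 995 CPM in the others, and adipocyte markers were at 155 and 108 CPM in WT against 22.5 and 19.8 CPM, with Adipoq, Plin1, Cfd, Lep and Retn at 0 in a p53-/- library. Proliferation markers summed to 402 and 245 CPM in WT against 587 and 693 CPM, macrophage markers to 59.5 and 181 against 223 and 643 CPM, and follicle and M cell markers to 26.9 and 30.0 against 62.4 and 163 CPM. The 8 crypt and stem cell markers summed to 476 and 410 CPM against 954 and 915 CPM, of which Olfm4 took 47.6 and 16.0 against 473 and 525 CPM, and the 7 others summed to 429 and 394 against 481 and 390 CPM. Pancreas, liver and red blood cell markers summed to at most 9.10 CPM in any library. In bulk tissue, fewer cells of a type and less RNA per cell cannot be told apart.

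Set beside the epithelium, the genotypes overlapped for each of the 8 genes except Cyp51. Taking the WT mean as 100%, the median of the 8 genes was 97.9% and 102% in libraries 7 and 8 and 77.0% and 58.7% in libraries 9 and 10, and the epithelium sum was 117%, 83.3%, 78.2% and 65.4%. Per 1000 CPM of epithelium markers, Srebf2 was at 16.0 and 20.3 CPM in WT and at 17.2 and 18.1 CPM in p53-/- mice, and Hmgcs1 at 14.7 and 25.5 against 16.1 and 15.3. Cyp51, at 15.5 and 16.1 against 12.4 and 12.7, was the 1 gene of the 8 that kept the genotypes apart beside these markers. Msmo1, which acts later in the route than Cyp51, also kept them apart, at 13.8 and 14.3 against 9.73 and 10.7. These overlaps depend on the marker list. The epithelium sum itself differed between the WT libraries (26468 and 18903 CPM), so dividing by it spread genes that were level there, such as Sqle. The enterocyte sum was level in WT, at 26426 and 26596 CPM. Whether more of the 8 genes keep the genotypes apart beside the enterocyte sum was not tested. Under the epithelium scaling the median of all genes, which shifted by 0.45, was 0.44, and 5.598% of all genes had both p53-/- libraries below both WT libraries. The share of all genes with a log2 fold change below the median of the 8 was 13.5% under TMM scaling and 13.3% under the epithelium scaling. Rescaling the libraries moves all genes by nearly the same amount, so this share was nearly fixed beforehand and shows nothing about the epithelium. The log2 fold changes under it were -0.46 for Msmo1 (SE 0.213, adjusted p = 0.295) and -0.33 for Cyp51 (SE 0.209, adjusted p = 0.418).

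**Figure D4:**
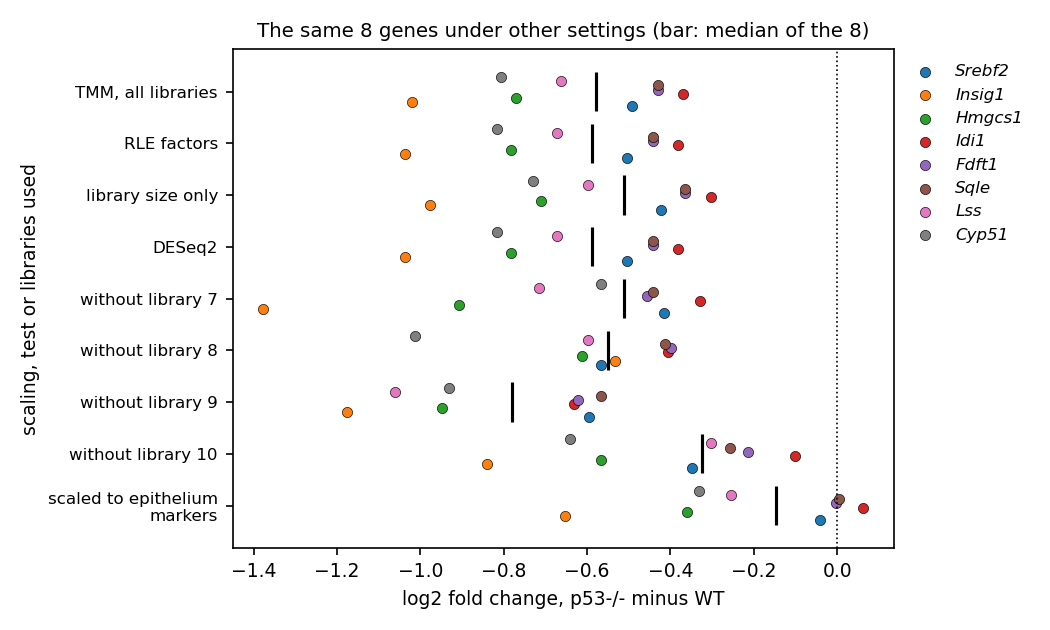
Log2 fold change of p53-/- over WT of the 8 genes under 9 settings (one colour a gene; bar, median of the 8). The points keep left of 0 except under scaling to the epithelium markers, where Idi1 stands at 0.063 and Sqle at 0.0048, and the median lies between -0.78 (without library 9) and -0.15 (scaled to the epithelium).

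The sterol genes are also known to follow the time of day in other tissues, and the labels do not give the hour of collection. Of 17 clock genes tested (of 18), 2 were called lower and 0 higher. Nr1d1, a repressor of the clock, fell from 27.0 and 36.6 to 6.36 and 6.67 CPM (log2 fold change -2.29, adjusted p = 0.0456), and Bhlhe40 fell from 172 and 164 to 58.3 and 65.3 CPM (log2 fold change -1.44, adjusted p = 0.0478), both by edgeR's test. Neither was called with library size only or with Rn18s-rs5 left out. Bhlhe41, its relative, was the highest at 3.90 and 4.48 against 0.37 and 1.69 CPM (log2 fold change 2.02, adjusted p = 0.254). The part of the clock or of the makeup of the tissue in the sterol values was not tested.

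Of 5300 other protein-coding genes with a mean log2 CPM of at least 5, the nearest to the mean centred profile of the 8 were Gtf3c1, Klf3, Dnajb2, Flrt3 and Zmiz1, at root mean square distances of 0.0104 to 0.0264 on the log2 scale. Among the other synthesis enzymes Hsd17b7 was nearest, at rank 97. Insig1 was the furthest of the 8 from their own mean, at 0.319, and 2563 of the 5300 genes lay within that distance. Cyp51 was next, at 0.211, with 994 genes within it, and the other 6 lay at 0.0922 to 0.137, with 86 to 281 genes within their distances.

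Across the series, the libraries held 17430246, 15005479, 22173164 and 19811346 counts (libraries 7 to 10). Trp53, the targeted gene, was at 57.7 and 47.1 CPM in WT and at 19.8 and 22.5 CPM in p53-/- mice (log2 fold change -1.31, SE 0.188, adjusted p = 0.0602), so reads remained over the locus. The gene of 18S ribosomal RNA, Rn18s-rs5, took 4.59% of the counts in library 10 and 0.296% to 0.863% in the others. With it left out, an alternative chosen after seeing the data, the median of the 8 genes was -0.53.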

How the data were processed

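Total RNA of the SI was poly-A selected and sequenced in 2 WT and 2 p53-/- libraries. What the authors deposited is a table of raw counts per gene, with no normalization, and 15005479 to 22173164 counts in a library. The submitters' processing notes list fastp, HISAT2 2.0.5, featureCounts 1.5.0-p3 and DESeq2 1.20.0. The genome build, the strand of counting and the treatment of reads that match several genes are not given in the sources used here. In GENCODE M21, which holds 91.9% of the gene identifiers, 5 of the 8 genes (Hmgcs1, Idi1, Fdft1, Lss and Cyp51) share exonic bases with a gene on the opposite strand. The columns name the genotype and not the replicate of the labels. Within a genotype the libraries were further apart than sampling noise (chi-square per degree of freedom 48.0 for WT and 69.5 for p53-/-).

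Counts were scaled by TMM after filterByExpr and fitted with edgeR 4.0.16 in R 4.3.3 (quasi-likelihood test, two-sided, Benjamini-Hochberg adjustment over 16094 genes, p53-/- minus WT). All adjusted p-values are from this test unless DESeq2 1.42.0 is named. The script was tested on simulated data. The alternatives were RLE factors, upper-quartile factors, library size only, scaling to epithelium markers, DESeq2, the likelihood ratio test, dropping the filter, a minimum of 10 counts in every library, the table without immunoglobulin and T cell receptor segments, scaling without the 50 most abundant genes, the table without Rn18s-rs5, and each library left out. Lists were written by hand. The 8 genes and the lists were chosen with earlier results of these data known. Genes named are the 8, fixed pathway genes, list genes past the threshold, the extremes of each list and the 5 of nearest pattern. Some genes of this rule are not reported here. Tm7sf2, Hsd17b7 and Pnpla3 were named after their values were seen.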

Additional observations from a re-analysis of the deposited data

How the results depend on the processing

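The 8 genes were lower in p53-/- mice in each alternative except scaling to the epithelium markers, where Sqle (0.0048) and Idi1 (0.063) turned. None was called by edgeR's quasi-likelihood test with all libraries and the filter (3 at an unadjusted p under 0.05). DESeq2 called 3, the likelihood ratio test 1, no filter 3, and leaving out 1 library 0 to 1 (Insig1 without library 7). Of all genes given an adjusted p, DESeq2 called 4.47% lower, the likelihood ratio test 2.87%, the fit lacking a filter 2.73% and the one lacking library 7 1.83%, and those called in either direction were 9.94%, 8.05%, 7.88% and 3.70%. The number with genotypes apart was 8 in each setting where it was computed but 1 under scaling to the epithelium markers. There the median was -0.15, beside 0.44 over all genes. Leaving out a library hardly allows genotypes that were apart to overlap, so that count was nearly fixed beforehand. Of all genes, 30.0% to 38.3% had p53-/- below WT with 1 library left out, beside 24.4% with all libraries and 5.6% under the epithelium scaling. With 1 library left out the median ran from -0.78 to -0.32, and the lone library was assumed to vary like the other genotype. The cause was not tested.

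The counts of genes called, 48 higher and 31 lower, were 29 and 20 with upper-quartile factors, 26 and 20 with library size only, 160 and 19 scaled to the epithelium markers, 812 and 663 with DESeq2, 833 and 462 with the likelihood ratio test, 1433 and 761 with no filter, 24 and 18 with at least 10 counts in every library, where fewer genes are tested, and 0 to 680 and 0 to 344 with 1 library left out (0 and 0 without library 10). Trp53 passed the threshold with DESeq2 (-1.32), the likelihood ratio test (-1.31), no filter (-1.26) and without library 7 or 8 (-1.45 to -1.15 over the 4).

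In the lists, beside those shares, lower and higher calls with DESeq2 were 6 and 0 of the synthesis enzymes, 2 and 1 of SREBP processing, 3 and 0 of the SREBP2 targets, 2 and 1 of LXR, 2 and 1 of sterol uptake and 0 and 2 of the SREBP1 targets. They were 4 and 0, 0 and 1, 0 and 0, 1 and 1, 2 and 1 and 0 and 1 with the likelihood ratio test, and 7 and 1, 1 and 1, 3 and 1, 2 and 1, 2 and 1 and 0 and 4 with no filter, which also gave 3 clock genes higher. Scaled to the epithelium markers, 1 gene of SREBP processing (Rnf145) and 1 of LXR (Smpdl3a) were called higher. The 2 clock genes became 0 with upper-quartile factors, library size only, the epithelium markers, at least 10 counts, the 50 most abundant genes left out and Rn18s-rs5 left out. With 1 library left out each list had at most 1 call a direction (0 to 1), except the clock genes, with 0 to 3 lower.

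Other genes turned direction, none of them called. Scaled to the epithelium markers these were Mvd (0.25), Nsdhl (0.10), Dhcr7 (0.36), Srebf1 (0.32), Scap (0.11), Insig2 (0.19), Npc1l1 (0.17) and Icmt (0.067). With 1 library left out, Fdps ran from -0.28 to 0.38, Dhcr7 from -0.24 to 0.073, Insig2 from -0.61 to 0.040, Npc1l1 from -0.58 to 0.090, and Soat2 from -0.092 to 0.26, and Fdps was at -0.0035 with RLE factors and with DESeq2. No paired analysis was possible because the columns carry no replicate number of the labels.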
